A study of Mus musculus with 30 samples.

Results

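In transverse aortic constriction (TAC) the aorta is tied to a narrower width, which loads the left ventricle with pressure. Of the 10 non-transgenic (NTG) mouse hearts that had 8 weeks of TAC in this series of 30 left ventricle libraries, 5 had a low level of Nppb, the gene for brain natriuretic peptide. They are TAC replicates 1, 4, 6, 7 and 9. They were chosen by 1 measured value, a deposited Nppb level of 500 CPM (counts per 1000000 counts of the library) or less, and were set against the 5 NTG hearts that had a Sham operation. The question was which genes change under load in TAC hearts with low Nppb, and Nppb itself was left out of every test. The NTG mice carry no transgene and serve as controls of hRXFP1tg (TG) mice, which overexpress the human relaxin receptor RXFP1 in cardiomyocytes. The 5 Sham and 10 TAC hearts of the TG mice enter only as a second set of libraries. The labels give no age, sex or strain, and each library is labelled as a separate replicate of its group.

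Under pressure overload the left ventricle thickens, and its cardiomyocytes return to part of a fetal gene programme, with more natriuretic peptides and skeletal muscle actin. Fibroblasts are activated and lay down matrix, and genes of fatty acid oxidation, the main fuel route of the adult heart, often decline. Nppb is released by stretched cardiomyocytes and is widely used as a marker of wall stress, so a low level marks hearts in which this response is weak.

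Nppb chose the hearts, so its values are given as a description. In deposited CPM it stood at 309, 264, 203, 208 and 164 in Sham replicates 1 to 5 and at 269, 394, 287, 306 and 267 in TAC replicates 1, 4, 6, 7 and 9. The heart nearest the limit from below was TAC replicate 4 at 394, and the nearest above it was TAC replicate 5 at 613. The other TAC hearts above the limit had 702, 1231, 1431 and 1680. The low-Nppb TAC hearts thus overlapped the Sham hearts in Nppb. Choosing hearts by low Nppb also narrows the spread of every gene whose level goes with Nppb, and brings such genes closer to Sham, which the tests do not allow for.

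The 10 libraries held 9231678 to 10792548 counts each, and 3 counts equal about 0.3 CPM. Summed over 10 cardiomyocyte markers, the level was 98646 to 105980 CPM in Sham and 90584 to 98472 CPM in low-Nppb TAC hearts, with none of the 10 at 0. These sums, like all sums over marker lists here, are in CPM without scaling factors, and the lowest Sham heart was only just above the highest TAC heart. The median log2 difference from the Sham mean over the same markers, in CPM scaled by TMM factors, overlapped between the groups. It was -0.1 to 0.07 in Sham and -0.16 to -0.07 in low-Nppb TAC hearts. The tissue is left ventricle per the labels. Sham replicate 5 held T cell transcripts: 12 T cell markers summed to 357 CPM there, against 22.5 CPM or less in the other Sham hearts and 9.46 to 34.6 CPM in the low-Nppb TAC hearts. The comparison was therefore repeated without it. Each library's name carries a number that the labels do not explain. It was 100 or more in 4 of 5 Sham hearts but in 1 of 5 low-Nppb TAC hearts, replicate 1. With 1 TAC heart among the higher and 1 Sham heart among the lower numbers, no comparison within either range has replicates on both sides.

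The markers of load had higher levels in most of the low-Nppb TAC hearts, the hearts varied widely, and neither marker passed the test. Levels from here on are in CPM scaled by TMM factors, except sums over marker lists and deposited Nppb levels. Acta1, the alpha-actin of skeletal muscle (gene ID 11459), stood at 1301, 845, 550, 589 and 655 CPM in Sham replicates 1 to 5. In TAC replicates 1, 4, 6, 7 and 9, the order in which all such values are given, it stood at 1986, 5081, 7620, 1166 and 8110 CPM. Replicates 4, 6 and 9 were far above Sham, replicate 1 was above it by less, and replicate 7 lay within the Sham range. The log2 fold change was 2.61 ± 0.59 (SE) with adjusted p = 0.128 in edgeR's quasi-likelihood test, and it passed in 1 of the 10 fits that leave out 1 heart. Ankrd1, a stretch-responsive protein of the sarcomere and nucleus (gene ID 107765), stood at 1752, 1659, 2032, 2300 and 1009 CPM in Sham and at 2311, 3833, 3998, 2756 and 5043 CPM in low-Nppb TAC hearts. All 5 TAC hearts were above every Sham heart, replicate 1 by a narrow margin, and the log2 fold change of 1.04 ± 0.27 had adjusted p = 0.187. Without Sham replicate 5 the adjusted p-values were 0.252 for Acta1 and 0.238 for Ankrd1, and without TAC replicate 7 Acta1 passed (adjusted p = 0.0481). In both genes replicates 4, 6 and 9 were the 3 highest of these 10 hearts and replicates 1 and 7 were the TAC hearts nearest to Sham. Since neither marker passed, the hearts are called by the rule that chose them, low-Nppb TAC hearts.

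**Figure D1:**
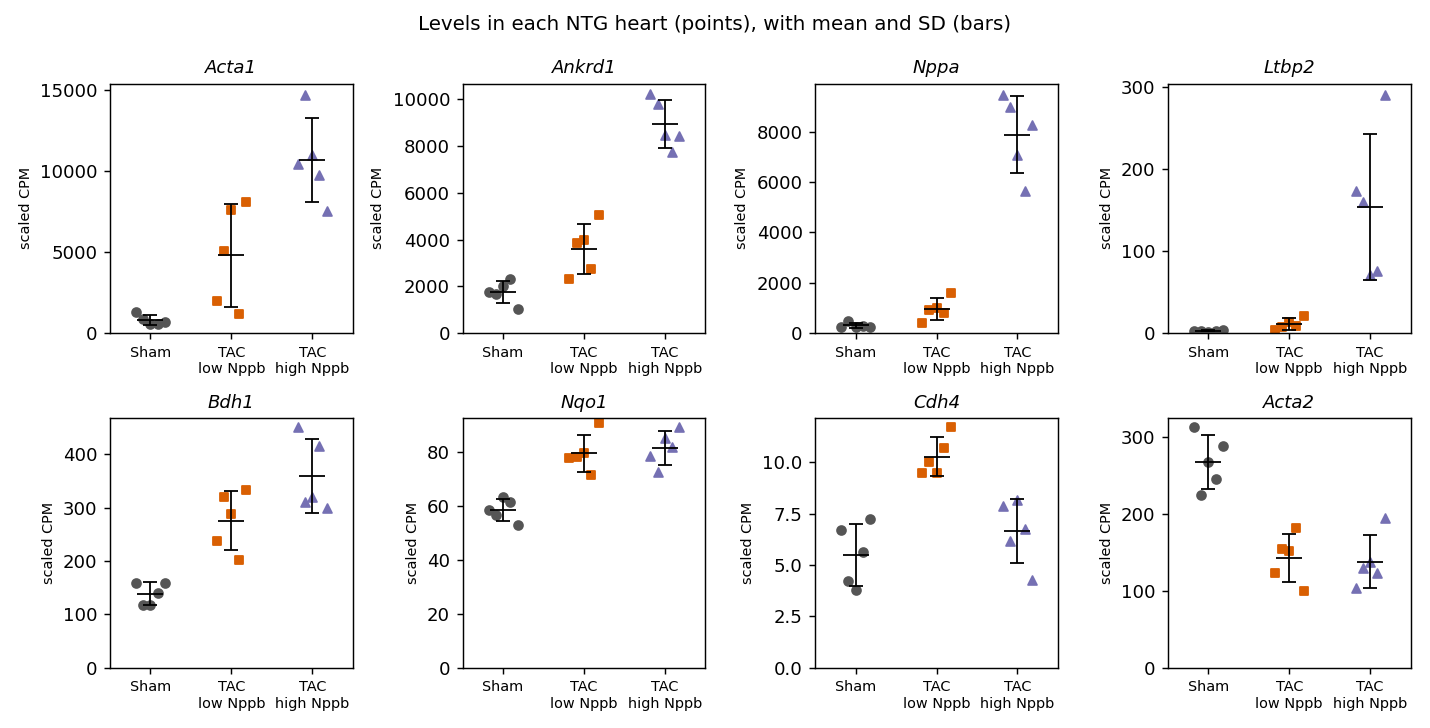
Scaled CPM (y axis, linear and starting at 0) of 8 genes in each NTG heart, with 5 Sham hearts (circles), 5 low-Nppb TAC hearts (squares) and 5 high-Nppb TAC hearts (triangles); long bars are means and whiskers SDs. Acta1 spans 1166 to 8110 CPM among the low-Nppb TAC hearts. Ankrd1, Ltbp2, Bdh1, Nqo1, Cdh4 and Acta2 do not overlap between them and Sham, which the choice of Bdh1, Nqo1 and Cdh4 required.

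Promoter sequences of 4 genes are shown because they span the patterns found here: Acta1 as the actin that marks load, Acta2 as the actin that fell, and Cpxm2 and Clic5 as genes that rose. Each is the 250 bases before 1 transcript start per gene, on the gene's strand, from a table of RefSeq starts on GRCm38.p6, the patch release of the mm10 build. That start is the outer end of the annotated gene for Acta1, lies 24 and 212 bases inside the gene's span for Cpxm2 and Acta2, and 53810 bases inside it for Clic5, and which start these hearts use was not examined. Acta1 lies at chr8:123894776-123895025 (minus strand), Acta2 at chr19:34255374-34255623 (minus strand), Cpxm2 at chr7:132154742-132154991 (minus strand) and Clic5 at chr17:44188322-44188571 (plus strand). Capitals mark exact matches, on either strand, to 4 motifs. They are the MCAT motif (CATTCC), which TEAD factors bind, and the CArG box of serum response factor (CCWWWWWWGG, W for A or T). The others are the MEF2 site (YTAWWWWTAR, Y for C or T, R for A or G) and the antioxidant response element (TGACNNNGC, N for any base), which NRF2 binds.
Acta1: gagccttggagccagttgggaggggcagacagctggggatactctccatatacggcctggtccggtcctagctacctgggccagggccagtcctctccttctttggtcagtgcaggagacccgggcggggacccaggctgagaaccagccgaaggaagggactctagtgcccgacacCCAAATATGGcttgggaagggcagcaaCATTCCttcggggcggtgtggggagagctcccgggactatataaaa
Acta2: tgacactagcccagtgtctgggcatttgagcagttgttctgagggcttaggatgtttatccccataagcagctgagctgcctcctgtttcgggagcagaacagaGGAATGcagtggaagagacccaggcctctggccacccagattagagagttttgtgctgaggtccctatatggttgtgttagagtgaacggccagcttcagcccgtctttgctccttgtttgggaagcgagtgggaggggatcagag
Cpxm2: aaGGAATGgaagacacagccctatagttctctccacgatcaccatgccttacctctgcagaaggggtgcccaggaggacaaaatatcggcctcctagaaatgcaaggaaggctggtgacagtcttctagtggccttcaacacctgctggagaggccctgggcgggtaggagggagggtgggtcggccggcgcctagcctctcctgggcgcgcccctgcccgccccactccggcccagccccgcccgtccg
Clic5: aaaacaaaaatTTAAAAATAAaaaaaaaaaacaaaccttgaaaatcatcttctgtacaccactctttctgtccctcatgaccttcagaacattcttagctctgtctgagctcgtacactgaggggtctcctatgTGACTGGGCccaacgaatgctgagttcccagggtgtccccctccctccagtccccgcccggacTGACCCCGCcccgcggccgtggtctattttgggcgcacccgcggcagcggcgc
The Acta1 window holds a CArG box 73 to 64 bases before the start and an MCAT motif 46 to 41 bases before it. Acta2 holds an MCAT motif 146 to 141 bases before the start and Cpxm2 one 248 to 243 bases before it. The stretches ccctatatgg and ccttgtttgg in the Acta2 window come near the CArG letters without an exact match and are not marked. An unmarked window is therefore not shown to lack a site. Clic5 holds a MEF2 site 239 to 230 bases before the start and 2 antioxidant response elements, 116 to 108 and 53 to 45 bases before it. Of 10286 tested genes with a promoter in the table, 13.1% held the MCAT motif, 1.45% the CArG box, 2.21% the MEF2 site and 14.1% the antioxidant response element. Of 34 genes that rose and have a promoter there, 11.8%, 2.94%, 2.94% and 20.6% held them, and of 32 genes that fell, 25.0%, 6.25%, 9.38% and 9.38%. AP-1 sites (TGANTCA) were in 5.42% of all, 5.88% of the rising and 6.25% of the falling genes. These matches describe letters in a window and were not tested.

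Across 12936 tested genes, 44 were higher in low-Nppb TAC than in Sham hearts (0.34%) and 46 were lower (0.356%) at adjusted p under 0.05, 0.696% in all. At an unadjusted p under 0.05 the shares were 5.81% higher and 5.26% lower. The groups did not overlap for 40 of the 44 rises and 41 of the 46 falls, against 1.3% of all tested genes higher and 1.09% lower in this way, 2.39% in all. Rises ran from 0.27 to 1.96 on the log2 scale with a median of 0.52, and 10 were 2-fold or more. Falls ran from -1.76 to -0.29 with a median of -0.55, and 7 were 2-fold or more. Without Sham replicate 5, 23 genes were higher (0.177% of 13008) and 24 lower (0.185%). The counts rest on few hearts. Leaving out Sham replicate 1, 2, 3 or 4 gave 10, 11, 9 and 16 rises and 7, 10, 6 and 11 falls. Leaving out TAC replicate 4, 6 or 9 gave 10, 25 and 7 rises and 7, 27 and 5 falls, whereas leaving out TAC replicate 1 gave 125 and 95 and leaving out TAC replicate 7 gave 77 and 51. Of the 37 called genes named in the text, 14, 15, 12, 13 and 31 kept the call without Sham replicate 1, 2, 3, 4 or 5, and 36, 14, 24, 34 and 10 without TAC replicate 1, 4, 6, 7 or 9. With this name number (under 100, or 100 and more) as a term in the fit, 0 genes rose and 5 fell in edgeR, where 415 and 559 had an unadjusted p under 0.05. The 5 were Sbk2, Sorcs2, Top2a, Ccl25 and Crip3, the last 3 named here after their values were seen. Those 3 rest on Sham replicate 5, the 1 Sham heart with a name number under 100 and the heart with T cell transcripts. Top2a, a topoisomerase of dividing cells, was at 17.002 CPM there, against 2.594 to 3.46 CPM in the other Sham hearts and 1.124 to 6.003 CPM in the low-Nppb TAC hearts. Ccl25 was at 16.188 CPM and Crip3 at 6.007 CPM in that heart, and none of the 3 passed without it (adjusted p = 0.982, 0.697 and 0.728) or in the fit without the term (0.689, 0.488 and 0.782). The median of 20 genes of cell division was 1.19 above the Sham mean on the log2 scale in the same heart, against -0.22 to -0.13 in the other 4. With the term added, all 90 called genes kept their sign and 26 had a log2 fold change as large or larger. The median gene kept 89.0% of its log2 fold change (57.3% at the lowest), while the median standard error was 1.24 times as large. These genes were called in the same libraries without the term, a choice that by itself favours kept signs and sizes. The fit with the term also leans on 1 TAC heart and 1 Sham heart, so these values do not separate the name number from TAC.

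The 15 largest rises among genes that were called with and without Sham replicate 5, had a mean of at least 2 CPM and did not overlap between the groups included genes of secreted proteins, enzymes, and cytoskeletal or organelle proteins. Cpxm2, which encodes a secreted protein of the carboxypeptidase family (gene ID 55987), led them. Its levels were 34.6, 27.1, 18.8, 25.4 and 22.6 CPM in Sham and 52.8, 75.8, 68.8, 61.8 and 91.6 CPM in low-Nppb TAC hearts. Every TAC heart was above the highest Sham heart, replicates 1 and 7 included, and the log2 fold change was 1.45 ± 0.18 (adjusted p = 0.0142, and at most 0.0481 without any 1 heart). Dkk3, a secreted glycoprotein of the Dickkopf family, rose from 1.30, 2.30, 2.198, 2.16 and 2.65 CPM to 2.997, 5.44, 7.86, 3.90 and 6.51 CPM, a log2 fold change of 1.32 ± 0.26 (adjusted p = 0.0282, up to 0.0928 without 1 heart). Here replicates 1 and 7 were the lowest of the TAC hearts and still above Sham.

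Gpx3, the glutathione peroxidase of plasma, stood at 252, 290, 335, 303 and 339 CPM in Sham and at 376, 376, 440, 421 and 476 CPM in low-Nppb TAC hearts. It rose by 0.46 ± 0.09 (adjusted p = 0.0271, up to 0.0797 without 1 heart). Prelp, a small leucine-rich proteoglycan that anchors basement membranes to connective tissue, rose from 112 ± 8.74 to 153 ± 21.5 CPM (SD, n = 5 each; log2 fold change 0.45 ± 0.09, adjusted p = 0.0282). Prelp lost the call without 1 heart (adjusted p up to 0.0848).

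Bdh1 encodes the mitochondrial dehydrogenase that interconverts the ketone bodies beta-hydroxybutyrate and acetoacetate (gene ID 71911). Its levels were 160, 117, 117, 140 and 159 CPM in Sham and 238, 319, 287, 201 and 333 CPM in low-Nppb TAC hearts, a rise of 0.99 ± 0.15 (adjusted p = 0.0282, up to 0.0848 without 1 heart). The lowest TAC heart, replicate 7, was above the highest Sham heart. Nqo1, a quinone reductase and a classical target of NRF2 (gene ID 18104), stood at 58.6, 56.7, 63.1, 61.5 and 52.8 CPM in Sham and at 77.6, 77.9, 79.5, 71.4 and 90.5 CPM in low-Nppb TAC hearts. It rose by 0.44 ± 0.07 (adjusted p = 0.0142, and at most 0.0481 without any 1 heart). Its spread among the TAC hearts was small, and replicate 1 was level with replicates 4 and 6.

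Clic5, a chloride intracellular channel protein that links membrane and actin cortex (gene ID 224796), stood at 262, 278, 253, 251 and 262 CPM in Sham and at 314, 394, 356, 326 and 401 CPM in low-Nppb TAC hearts. It rose by 0.46 ± 0.07 (adjusted p = 0.0142), and Prune2, a protein with a BCH domain, by 0.49 ± 0.08 (adjusted p = 0.0123). Both kept the call without any 1 heart (adjusted p up to 0.0433 each). Bnip3, a receptor of mitochondrial autophagy, stood at 121, 121, 128, 123 and 114.5 CPM in Sham and at 154, 176, 151, 150 and 150 CPM in low-Nppb TAC hearts (0.36 ± 0.06, adjusted p = 0.0159). Hecw2, a HECT-type ubiquitin ligase, rose by 0.45 ± 0.08 (adjusted p = 0.0239), Narf, which binds prelamin A, by 0.34 ± 0.06 (0.0159), and Mllt11, known as a fusion partner in leukaemia, by 0.55 ± 0.12 (0.0321). Without 1 heart the highest adjusted p-values were 0.0493 for Bnip3, 0.0751 for Hecw2, 0.0591 for Narf and 0.119 for Mllt11. Cdh4, which encodes R-cadherin (gene ID 12561), went from 6.69, 4.21, 3.77, 5.62 and 7.23 CPM to 9.46, 10.004, 9.495, 10.7 and 11.7 CPM, a rise of 0.90 ± 0.16 (adjusted p = 0.0239, up to 0.0751 without 1 heart).

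**Figure D2:**
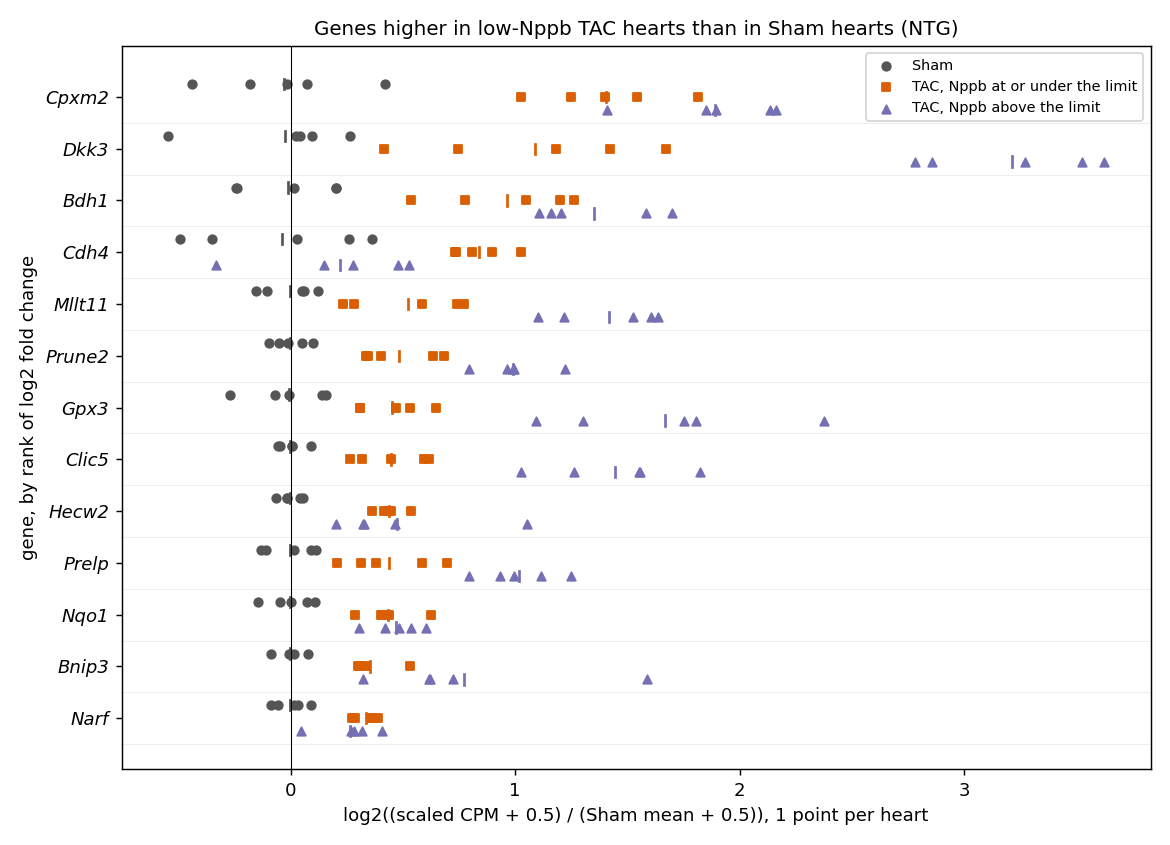
Rises by rank, 13 of the 15 (y axis), as the log2 ratio of scaled CPM plus 0.5 to the Sham mean plus 0.5 (x axis), with 1 point per NTG heart and a tick at each group's mean; circles are Sham, squares low-Nppb TAC and triangles high-Nppb TAC hearts. All squares lie to the right of all circles of the same gene, as the choice of genes required. The triangles lie farther right for Dkk3, Gpx3 and Clic5 but among the circles and squares for Narf. For Cdh4 they lie left of all squares, among or just right of the circles.

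Several genes from the lists rose without meeting all of those conditions. The Z-disc anchors the thin filaments of the sarcomere, and 2 of 25 tested members of its list rose, where 0.34% of all tested genes did. Nrap, an anchoring protein of growing myofibrils, stood at 788, 771, 654, 684 and 638 CPM in Sham and at 875, 944, 950, 833 and 1145 CPM in low-Nppb TAC hearts (0.43 ± 0.09, adjusted p = 0.0282). Myot, which encodes myotilin, rose by 0.63 ± 0.12 (adjusted p = 0.0378), with replicate 7 at 97.9 CPM within the Sham range of 84.2 to 101 CPM and the other 4 TAC hearts above it. Neither passed without Sham replicate 5 (adjusted p = 0.0662 and 0.0979). Tbx15, a T-box transcription factor, was at 0.314 to 0.814 CPM in Sham and at 1.97, 1.85, 1.42, 1.90 and 3.75 CPM in the TAC hearts (1.91 ± 0.35, adjusted p = 0.0239). The gene rests on few counts, and the TAC hearts were nonetheless above every Sham heart. Fosb, a subunit of the AP-1 transcription factor, rose by 1.24 ± 0.25 (adjusted p = 0.0285), with 3.01 CPM in replicate 4 inside the Sham range of 2.11 to 3.05 CPM. It was the only 1 of 21 tested immediate early genes with a call, where 0.34% of all tested genes rose and 0.356% fell. Pde8a, a phosphodiesterase that degrades cyclic AMP, rose by 0.37 ± 0.08 (adjusted p = 0.0493, and 0.104 without Sham replicate 5).

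Sbk2 and Sorcs2 had the lowest adjusted p-values of the falls by rank. Sbk2, a serine/threonine kinase of the SH3-binding domain kinase family (gene ID 381836), stood at 14.1, 10.3, 17.1, 14.8 and 12.4 CPM in Sham and at 7.77, 5.34, 5.68, 4.39 and 3.95 CPM in low-Nppb TAC hearts. It fell by 1.33 on the log2 scale (SE 0.17, adjusted p = 0.00274, and at most 0.0286 without any 1 heart). Sorcs2, a sorting receptor of the VPS10 family (gene ID 81840), fell from 49.0, 51.2, 55.7, 50.9 and 44.6 CPM to 36.4, 23.9, 26.4, 29.1 and 26.3 CPM, by 0.82 on the log2 scale (SE 0.10, adjusted p = 0.00142, and at most 0.0108 without any 1 heart). In both genes replicate 1 was the TAC heart nearest to Sham and still below every Sham heart. Of the called genes named here, these 2 also passed with the name number as a term, with log2 fold changes of -1.11 and -0.63 (adjusted p = 0.0327 and 0.0116).

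Rgs7, which speeds the shut-off of G proteins, stood at 2.89, 4.40, 4.29, 5.41 and 2.44 CPM in Sham and at 1.69, 1.17, 1.31, 0.899 and 0.592 CPM in low-Nppb TAC hearts. Its log2 fold change of -1.76 ± 0.29 was the largest fall of the 46 (adjusted p = 0.0142, up to 0.0433 without 1 heart). Ret, the receptor tyrosine kinase of glial-derived neurotrophic factors, went from 11.3, 8.90, 13.6, 8.87 and 12.7 CPM to 5.15, 7.38, 6.66, 5.39 and 4.74 CPM (-0.92 ± 0.16, adjusted p = 0.016, up to 0.0694 without 1 heart). Ramp1, the partner protein of the receptor for calcitonin gene-related peptide, went from 10.2 ± 0.487 to 6.36 ± 1.18 CPM (SD, n = 5 each; -0.67 ± 0.13, adjusted p = 0.0282, up to 0.0928 without 1 heart). All 3 act at the cell surface or just beneath it in receptor signalling.

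Among channels, Scn10a, a voltage-gated sodium channel, stood at 5.49, 4.88, 4.29, 4.54 and 4.38 CPM in Sham and at 2.90, 1.75, 2.07, 2.80 and 0.986 CPM in low-Nppb TAC hearts (-1.16 ± 0.23, adjusted p = 0.0282). Aqp4, a water channel, went from 7.28, 6.32, 11.7, 10.2 and 6.82 CPM to 4.03, 3.30, 4.37, 5.29 and 3.35 CPM (-1.05 ± 0.19, adjusted p = 0.0239). Clcn1, the chloride channel of skeletal muscle, went from 27.04, 26.04, 22.1, 27.7 and 26.1 CPM to 21.3, 13.8, 16.5, 14.8 and 18.4 CPM (-0.60 ± 0.11, adjusted p = 0.0239), with replicate 1 just below the lowest Sham heart. Without 1 heart their highest adjusted p-values were 0.0995, 0.0848 and 0.0848. Kcnj3, a subunit of the acetylcholine-gated potassium channel, was the 1 called gene of 31 tested ion channels and connexins, at -0.34 ± 0.07 (adjusted p = 0.0285). It stood at 121, 113.1, 113.6, 116 and 109 CPM in Sham and at 102.2, 93.0, 79.1, 93.3 and 84.4 CPM in low-Nppb TAC hearts. Cacng6, a gamma subunit of voltage-gated calcium channels, was the 1 called gene of 28 tested calcium-handling genes, at -1.16 ± 0.25 (adjusted p = 0.0344, and 0.0589 without Sham replicate 5). Over all tested genes the shares called were 0.34% higher and 0.356% lower. Gja1, which encodes connexin 43, had -0.34 ± 0.08 and did not pass (adjusted p = 0.0717).

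The other falls by rank included Sv2a, a glycoprotein of synaptic vesicles (-0.80 ± 0.16, adjusted p = 0.0282), Adgrb2, an adhesion G protein-coupled receptor (-0.76 ± 0.16, 0.0351), and Phf24, a protein with a PHD finger (-0.53 ± 0.11, 0.0326). Gm6416, a predicted gene, was at -0.86 ± 0.18 (adjusted p = 0.0321), and Gal3st2c, a galactose sulfotransferase with close copies in the mouse genome between which reads may be split, at -0.64 ± 0.13 (0.0282). At the cell surface and in the matrix, Lrrc15, a membrane protein with leucine-rich repeats, fell by 0.55 (-0.55 ± 0.11, 0.0282) and Emilin2, a glycoprotein of elastic microfibrils, went from 71.3, 79.7, 82.0, 77.3 and 76.2 CPM to 60.1, 52.6, 50.6, 59.7 and 43.9 CPM (-0.53 ± 0.08, 0.0123). Emilin2 kept its call without any 1 heart (adjusted p up to 0.0433), whereas the others of this paragraph did not, with highest values from 0.081 for Sv2a to 0.118 for Adgrb2.

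Acta2, the smooth muscle form of alpha-actin, which also marks myofibroblasts (gene ID 11475), went the opposite way to Acta1 in level. It stood at 314, 224, 267, 245 and 288 CPM in Sham and at 124, 155, 152, 182 and 100 CPM in low-Nppb TAC hearts, without overlap, and fell by 0.91 on the log2 scale (SE 0.15, adjusted p = 0.0288). Without Sham replicate 5 it had -0.88 and adjusted p = 0.0749. Of 10 tested markers of smooth muscle and pericytes Acta2 was the 1 with a call, where 0.356% of all tested genes fell. The summed level of the list was 1817 to 2023 CPM in Sham and 1675 to 1921 CPM in low-Nppb TAC hearts. Igf2, insulin-like growth factor 2, fell by 0.39 (SE 0.08, adjusted p = 0.0344, and 0.0766 without Sham replicate 5), from 25.8 to 29.0 CPM in Sham hearts to 17.8 to 22.6 CPM.

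**Figure D3:**
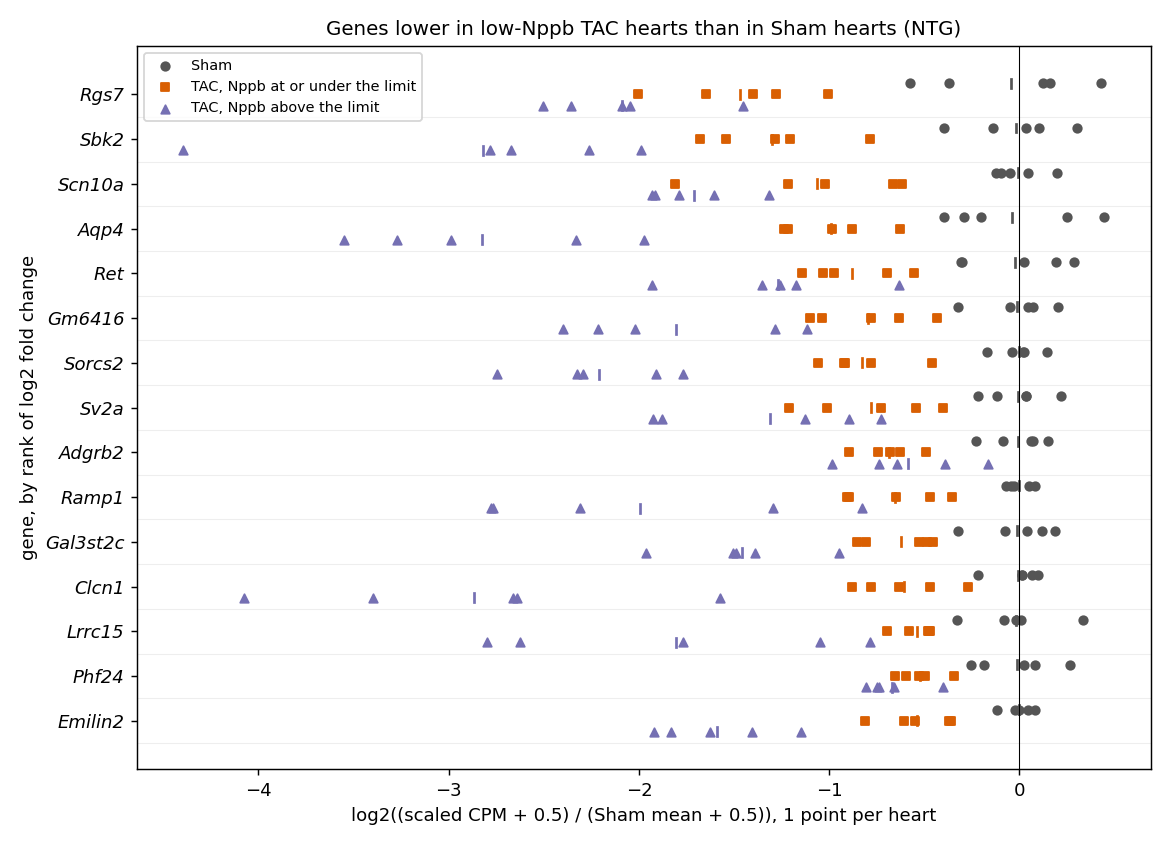
The 15 falls by rank (y axis) as the log2 ratio of scaled CPM plus 0.5 to the Sham mean plus 0.5 (x axis), with 1 point per NTG heart and a tick at each group's mean; circles are Sham, squares low-Nppb TAC and triangles high-Nppb TAC hearts. All squares lie left of all circles of the same gene, as the choice of genes required, and the triangles lie farthest left for Sbk2, Aqp4, Clcn1 and Sorcs2 but overlap the squares for Adgrb2 and Phf24.

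Genes of the hypertrophy programme had mostly positive values without calls. Of 18 tested hypertrophy genes 0 were called in edgeR, 14 had a positive log2 fold change with a list median of 0.42 against -0.00197 over all genes, and 11 were higher at an unadjusted p under 0.05 (background 5.81%). DESeq2 called 5 of them higher, where it called 0.92% of all tested genes higher and 0.788% lower. Nppa, the gene of atrial natriuretic peptide, stood at 239, 460, 258, 296 and 257 CPM in Sham and at 386, 930, 984, 804 and 1610 CPM in low-Nppb TAC hearts (1.64 ± 0.37, adjusted p = 0.126). Fhl1, a LIM protein that senses stretch at the titin filament, had 0.37 ± 0.10 (adjusted p = 0.121), and Hspb7, a small heat shock protein of muscle, 0.39 ± 0.10 (adjusted p = 0.102). Nppa in replicate 1 lay within the Sham range, the other 4 TAC hearts were above it, and without replicate 1 the gene passed (1.84, adjusted p = 0.0255).

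Matrix genes showed a similar picture on a smaller scale. In the extracellular matrix list 44 genes were tested, of which 1 rose (background 0.34%) and 0 fell, with a median of 0.22. At an unadjusted p under 0.05, 17 members were higher (background 5.81%), and DESeq2 called 7 higher (background 0.92%) and 0 lower. Fmod, the collagen-binding proteoglycan fibromodulin, was at 0.200 to 1.05 CPM in Sham and at 1.59, 1.65, 4.69, 1.30 and 4.74 CPM in low-Nppb TAC hearts (2.11 ± 0.48, adjusted p = 0.0644). Thbs4, the matricellular protein thrombospondin 4, had 0.92 ± 0.23 (adjusted p = 0.0999). Ltbp2, a protein of elastic microfibrils, was at 2.59, 2.78, 1.57, 2.81 and 3.46 CPM in Sham and at 3.65, 7.19, 13.6, 8.89 and 21.3 CPM in the TAC hearts (2.04 ± 0.48, adjusted p = 0.128). In all 3 the TAC hearts differed strongly among themselves. The list for transforming growth factor beta had 0 calls of 25 tested members in edgeR, with 6 higher and 2 lower at an unadjusted p under 0.05, and DESeq2 called 2 higher and 1 lower. Of 9 tested markers of activated fibroblasts the 1 call in edgeR was the fall of Acta2, while the median of the list was 0.88 and 6 were higher at an unadjusted p under 0.05. DESeq2 called 4 of them higher and 1 lower. For both lists, the shares over all tested genes were 5.81% higher and 5.26% lower at an unadjusted p under 0.05. In DESeq2 they were 0.92% and 0.788%, and 0.356% of all tested genes were called lower in edgeR. Of 12 markers of fibroblasts in general 0 were called in edgeR or DESeq2 and 0 had an unadjusted p under 0.05, and their sum overlapped, at 2762 to 3504 CPM in Sham and 3072 to 3794 CPM in low-Nppb TAC hearts.

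Genes of fuel oxidation had small negative values across their lists. Of 55 tested genes of oxidative phosphorylation 54 were negative, with a median of -0.11, a range from -0.29 to 0.04, 0 calls in edgeR or DESeq2 and 8 lower at an unadjusted p under 0.05 (background 5.26%). The hearts overlapped in the list median of the difference from the Sham mean, at -0.12 to 0.15 in Sham and -0.2 to -0.04 in low-Nppb TAC hearts. Of 38 genes of fatty acid uptake and oxidation 28 were negative, with a median of -0.16, 0 calls in edgeR, 15 lower at an unadjusted p under 0.05 and 5 lower in DESeq2 (background 0.788%). By heart this list's median was -0.05 to 0.08 in Sham and -0.26 to -0.05 in low-Nppb TAC hearts. Acaa2, the last enzyme of the mitochondrial beta-oxidation cycle, came closest to a call. It stood at 851, 841, 975, 976 and 849 CPM in Sham and at 774, 660, 669, 810 and 601 CPM in low-Nppb TAC hearts (-0.35 ± 0.08, adjusted p = 0.0506). Etfb, which passes electrons from that cycle to the respiratory chain, had -0.31 ± 0.08 (adjusted p = 0.121), and Slc25a20, which carries acylcarnitines into mitochondria, -0.20 ± 0.06 (0.131). Of 23 genes of the tricarboxylic acid cycle 20 were negative with a median of -0.11, 0 calls in edgeR, 7 lower at an unadjusted p under 0.05 and 2 lower in DESeq2 (background 0.788%). By heart this list's median overlapped as well, at -0.11 to 0.07 in Sham and -0.18 to -0.04 in low-Nppb TAC hearts. Suclg1, a subunit of succinyl-CoA ligase, had -0.20 ± 0.06 (adjusted p = 0.181) and Cs, citrate synthase, -0.18 ± 0.06 (0.215). The summed cardiomyocyte markers were lower in the same hearts in CPM without scaling factors, and their scaled list medians overlapped, as given above. The part of these markers in the values of fuel genes was not tested. Of 29 genes of glucose uptake and glycolysis 0 were called in edgeR or DESeq2 and 2 higher and 1 lower at an unadjusted p under 0.05, with a median of -0.00425.

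Of the 24 tested antioxidant and NRF2 target genes 2 rose, Gpx3 and Nqo1 (background 0.34%), and 0 fell (background 0.356%). Both calls held without Sham replicate 5 (adjusted p = 0.0234 and 0.0326). Nox4, a superoxide-producing oxidase, had 1.18 ± 0.32 and did not pass (adjusted p = 0.118). The unfolded protein and integrated stress response list had 0 calls of 30 tested members in edgeR and 1 higher in DESeq2 (background 0.92%). At an unadjusted p under 0.05, 4 were higher (background 5.81%) and 3 lower (background 5.26%), with a list median of -0.00418. Of the 43 lists, 25 had no called member, and no list had more than 2 genes called higher.

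**Figure D4:**
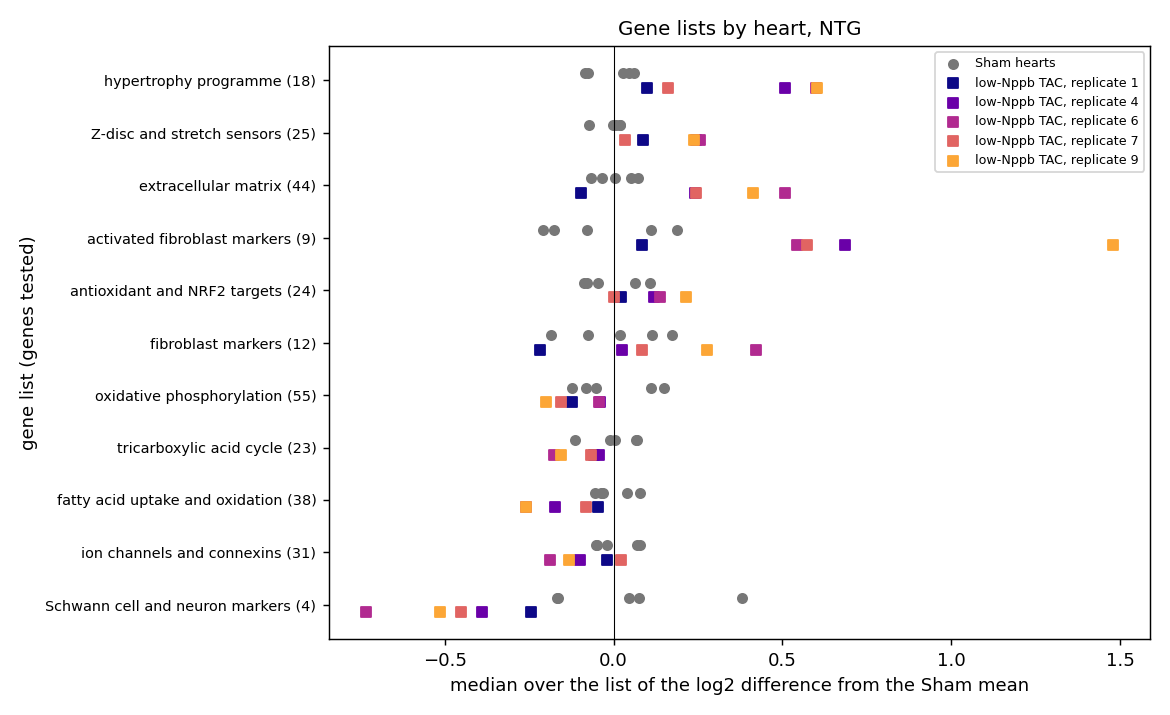
Median over each gene list (y axis, number of tested genes in brackets) of the log2 difference from the Sham mean (x axis), with 1 point per heart; grey circles are Sham hearts and coloured squares the 5 low-Nppb TAC hearts by replicate. In the hypertrophy list replicates 4, 6 and 9 stand at 0.51 to 0.60 and replicates 1 and 7 at 0.10 and 0.16, against -0.08 to 0.06 in Sham.

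The low-Nppb TAC hearts were not alike. In the hypertrophy list the median difference from the Sham mean was 0.51, 0.60 and 0.60 in replicates 4, 6 and 9 but 0.10 and 0.16 in replicates 1 and 7. In the Z-disc list the values were 0.24, 0.26 and 0.24 in the first 3 and 0.09 and 0.03 in the other pair, beside -0.07 to 0.02 in Sham hearts. In the matrix list replicate 1 was at -0.10, just under the Sham range of -0.07 to 0.07, while replicates 4, 6, 7 and 9 were at 0.24, 0.51, 0.25 and 0.41. Replicate 7 thus stood with the higher hearts in matrix genes and with replicate 1 in hypertrophy genes. Replicate 1 is also the low-Nppb TAC heart with a name number of 100 or more, a range that holds 4 of the 5 Sham hearts. Its part in these values was not tested.

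Few markers of other cells were called, where 0.34% of all tested genes rose and 0.356% fell. Of 6 tested markers of the atrium, 1 rose (Dkk3) and 1 fell (Kcnj3). The sum of the 10 on that list was 391 to 609 CPM in Sham and 524 to 1713 CPM in low-Nppb TAC hearts. Its list medians overlapped, at -0.15 to 0.03 in Sham and -0.32 to 0.01 in low-Nppb TAC hearts. At an unadjusted p under 0.05, 5.81% of all tested genes were higher and 5.26% lower. The sum of 19 macrophage markers was 332 to 442 CPM in Sham and 284 to 629 CPM in low-Nppb TAC hearts, with 0 of 18 tested members called in edgeR and 0 in DESeq2, and 1 higher at an unadjusted p under 0.05. Of 10 endothelial markers 0 were called by either tool and 0 had an unadjusted p under 0.05, and their sums overlapped at 1951 to 2112 and 1891 to 2189 CPM. Markers of Schwann cells and neurons were lower in level: their sum was 17.3 to 27.9 CPM in Sham and 13.4 to 18.3 CPM in low-Nppb TAC hearts, with 0 of 4 tested members called in edgeR, 1 lower in DESeq2, 3 lower at an unadjusted p under 0.05, and Npy at 0 counts in all 10 hearts. Dbh, the enzyme that makes noradrenaline in sympathetic neurons, had -0.81 ± 0.22 (adjusted p = 0.118). In these bulk samples fewer cells of a type and less RNA per cell cannot be told apart. Sv2a and Ret, which neurons express, were among the falls, and the part of neural cells in their fall was not tested.

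The TAC hearts with higher Nppb show where the same genes stood in hearts above the limit. They were separated from the low-Nppb hearts by the rule itself and share their Sham controls, so their levels are a description with no test. For 39 of the 44 rising genes and 43 of the 46 falling genes the mean of the high-Nppb hearts was farther from Sham than that of the low-Nppb hearts. Dkk3 reached 17.5 to 31.7 CPM, Gpx3 648 to 1580 CPM and Clic5 533 to 925 CPM, all above the highest low-Nppb heart. Clcn1 was at 1.06 to 8.34 CPM, Sorcs2 at 7.06 to 14.4 CPM and Sbk2 at 0.177 to 3.09 CPM, all below the lowest low-Nppb heart. Other genes stood at about the same level in both sets. Nqo1 was at 72.5 to 89.2 CPM in the high-Nppb and 71.4 to 90.5 CPM in the low-Nppb hearts, Phf24 at 9.36 to 12.5 and 10.5 to 13.1 CPM, Acta2 at 103.5 to 195 and 100 to 182 CPM, and Narf at 126 to 162 and 147 to 160 CPM. Cdh4 was at 4.28 to 8.15 CPM in the high-Nppb hearts, across the Sham range of 3.77 to 7.23 CPM and below every low-Nppb TAC heart, at 9.46 CPM or more. By contrast the matrix list had medians of 1.17 to 2.66 above Sham in the high-Nppb hearts and the hypertrophy list 1.06 to 2.37.

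The TG hearts offer a test in libraries that the rule did not use. All 10 TG TAC hearts had deposited Nppb levels of 141 to 420 CPM, and the 5 TG Sham hearts of 66.96 to 259 CPM, so they too lay under the limit. A fit of these 15 libraries alone called 541 genes higher (4.09% of 13218) and 417 lower (3.15%) after TAC, 7.25% in all. Of the 90 genes called in low-Nppb NTG hearts, 65 were called in the same direction in TG hearts (72.2%, with 33 rises and 32 falls), and they make up 6.89% of the 944 TG calls among genes tested in both. None of the 90 was called in the opposite direction, and 90 of 90 had the same sign. The share of all genes tested in both sets with the same sign was not computed, so this agreement has no background beside it. Without Sham replicate 5 the NTG calls numbered 47, of which 40 were shared (85.1%). The genotype differs between the sets, and the TG hearts have a like imbalance in the name number, which was 100 or more in 5 of 5 Sham and 1 of 10 TAC hearts. With that number as a term the TG fit called 0 genes in either direction in edgeR, and 319 higher and 378 lower genes had an unadjusted p under 0.05. Of the 958 TG calls, 810 kept their sign with the term, and the median gene kept 40.9% of its log2 fold change. Leaving out TG Sham replicate 2 gave 346 rises and 265 falls, leaving out TG Sham replicate 4 gave 270 falls, and leaving out TG TAC replicate 1 gave 688 falls.

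Of the 28 genes described by rank, 24 passed in TG hearts as well. Cpxm2 rose there by 1.56 ± 0.29 (adjusted p = 0.00618), Bdh1 by 0.92 ± 0.18 (0.00793), Clic5 by 0.54 ± 0.07 (7.28e-05), Prune2 by 0.58 ± 0.06 (8.11e-06), Nqo1 by 0.43 ± 0.07 (0.000523) and Cdh4 by 1.13 ± 0.22 (0.00544). Ramp1 had -1.08 ± 0.14 (6.73e-05), Sbk2 -0.92 ± 0.14 (0.0006), Rgs7 -1.33 ± 0.22 (0.000856) and Sorcs2 -0.75 ± 0.15 (0.00695). The differences in size between the genotypes were not tested. Bnip3 (0.16 ± 0.06, adjusted p = 0.0884), Gm6416 (-0.43 ± 0.14, 0.0696), Clcn1 (-0.75 ± 0.23, 0.0649) and Phf24 (-0.13 ± 0.11, 0.504) did not pass. Acta2 (-0.59 ± 0.18, 0.0605) and Fosb (0.73 ± 0.47, 0.392) did not either. The markers of load passed in TG hearts, with Acta1 at 3.64 ± 0.48 (adjusted p = 0.000908) and Ankrd1 at 1.58 ± 0.28 (0.00467), as did Nrap at 0.62 ± 0.06 (4.59e-06), Hspb7 at 0.59 ± 0.07 (4.45e-05) and Acaa2 at -0.37 ± 0.07 (0.00252). In the TG hearts 16 of 25 Z-disc genes and 14 of 44 matrix genes rose, where 4.09% of all tested genes did, and 14 of 55 genes of oxidative phosphorylation and 12 of 38 of fatty acid oxidation fell, where 3.15% of all did. With the name number as a term, 0 of these TG calls remained.

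**Figure D5:**
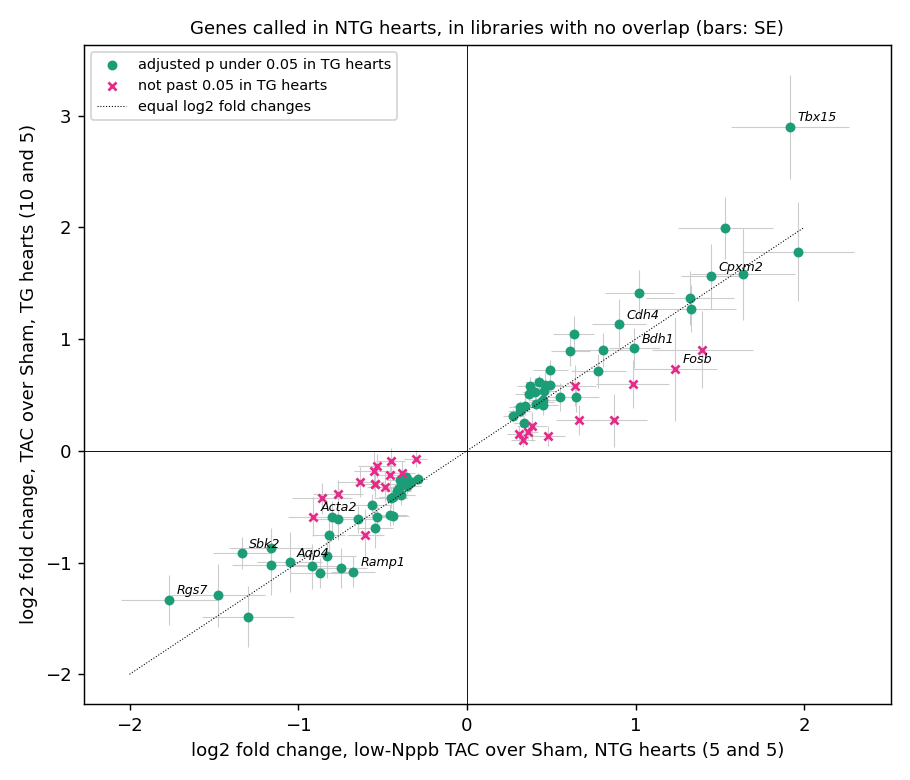
Log2 fold change of TAC over Sham for the genes called in NTG hearts, in low-Nppb NTG hearts (x axis, 5 against 5) and in TG hearts (y axis, 10 against 5), with bars for standard errors and a dotted line of equal change; circles passed in TG hearts and crosses did not. All points lie at the lower left or upper right, with the same sign on both axes, and 65 of 90 are circles.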

How the data were processed

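Left ventricular mRNA of 30 mice was sequenced strand by strand in read pairs of 100 bases, per the labels' protocols. The submitters' processing notes name the build mm10, edgeR 3.17, Bowtie2 2.2.9, TopHat and Trim Galore 0.6.4; the counting program and its strand setting are not given in the sources used here. The authors deposited raw counts per gene and CPM for each library. In a check, the deposited CPM matched each count over the library total, without scaling factors. Of 24467 gene IDs, 24437 took a symbol from RefSeq, 7 from GENCODE and 23 none. Library totals were 9231678 to 13093351 counts.

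Counts were tested in R 4.3.3 with edgeR 4.0.16 (TMM factors, filterByExpr with a minimum count of 10, robust quasi-likelihood fit, two-sided), limma 3.58.1 and DESeq2 1.42.0. P-values were adjusted by Benjamini and Hochberg over all tested genes, with 0.05 as the threshold. The comparison used the 5 low-Nppb TAC and 5 Sham libraries alone. A standard error is the absolute log2 fold change over the square root of F. Levels are CPM scaled by TMM factors over all 30 libraries, except deposited Nppb levels and sums over marker lists, which are CPM without these factors. The scripts were tested on simulated counts. Named genes are the 15 largest rises and falls among genes called with and without Sham replicate 5, with a mean of at least 2 CPM and groups that do not overlap, then Acta1, Ankrd1 and up to 3 members of each of 43 lists by p; 4 genes that this rule names are not reported here. The hearts, lists and rules were chosen with earlier results of these data known. Lists are described by counts and medians, without a set test. Alternatives were RLE and upper-quartile factors, no filter, a CPM of at least 1 in 5 libraries, DESeq2, voom, limma-trend on log2 of deposited CPM plus 0.5, other sets of hearts, a name-number term, a replicate block, glmTreat at a fold of 1.2, and each library left out in turn. Nothing states that replicates are separate litters or days, so p-values set group differences against the spread between these libraries only.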

Additional observations from a re-analysis of the deposited data

Results flagged for a closer look

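A heart that stood far from the others of its group of 5 was looked for in every gene the text names. It was found in 3 of 126 groups of values, where chance alone flags about 1 in 20. Bnip3 was at 175.9 CPM in low-Nppb TAC replicate 4, against 150.1 to 153.5 CPM in the other 4 low-Nppb TAC hearts. Nppa was at 460.5 CPM in Sham replicate 2, against 238.8 to 295.9 CPM in the other Sham hearts. Tbx15 was at 3.749 CPM in low-Nppb TAC replicate 9, against 1.419 to 1.967 CPM in the other 4.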

How the results depend on the processing

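Counts of 44 rises and 46 falls (0.34% and 0.356% of tested genes) stayed within 1.5 times with RLE or upper-quartile factors, both other filters, voom, limma-trend and TAC replicate 5 added. The filter of 1 CPM in 5 libraries left 12936 genes, as many as the main filter, so it says little about the choice of filter. The changes under the other settings were larger. Rises and falls came to 0.92% and 0.7885% with DESeq2, 1.001% and 0.647% with all 10 NTG TAC hearts, 0.206% and 0.0883% in 1 fit of all 30 libraries in 5 groups, 0% and 0.0387% with the name-number term, and 0% and 0.0155% against a fold of 1.2. Leaving out 1 heart gave 0.0538% to 0.96% and 0.0384% to 0.73%. Replicate numbers do not pair the samples (correlations of deviations 0.084 and 0.043 in NTG and -0.037 to 0.131 in TG hearts). With them as a replicate block the shares were 0.186% and 0.0696%, 24 and 9 genes, of which 4 and 5 were among the 44 and 46. Only numbers 1 and 4 occur in both NTG groups, so the blocked comparison rests on those hearts and says little about the others. Of the 37 called genes named in the text, 0 reversed in any of 23 settings, and Sox10, not called, reached 0.0886 on the log2 scale with the replicate block. In TG hearts (4.09% and 3.15%) the fit of all libraries gave 2.65% and 1.87%, the name-number term 0% and 0%, the replicate block 2.08% for falls, and leaving out 1 heart 2.6% to 6.08% and 1.99% to 5.22%. Genes called in both sets numbered 65, then 159 with DESeq2, 35 in the fit of all libraries and 40 without Sham replicate 5. The causes were not tested. Genes near 1 CPM, such as Tbx15, rest on about 10 counts a library.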
